A study of Mus musculus with 20 samples.

Results

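The genes described here run GABA and glycine transmission, the fast inhibitory signalling of the spinal cord. They are 27 of the 43629 genes in the table, taken as the rows that map to a fixed list of symbols. The list holds 2 synthesis enzymes (Gad1, Gad2), 2 breakdown enzymes (Abat, Aldh5a1) and 4 transmitter transporters (Slc32a1, Slc6a5, Slc6a9, Slc6a11). It goes on with 8 subunits of the GABA-A receptor, 2 of the GABA-B receptor and 4 of the glycine receptor. It ends with Gphn, Nlgn2 and Gabarap, which act in receptor anchoring and traffic, and the 2 chloride cotransporters Slc12a2 and Slc12a5. All 27 were found.

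Inhibitory neurons make GABA from glutamate with the glutamate decarboxylases, load GABA or glycine into vesicles with the shared vesicular carrier, and release either or both. GABA-A and glycine receptors are pentameric chloride channels held at the synapse by gephyrin, whereas GABA-B receptors act through G proteins. The direction of chloride flow depends on 2 cotransporters, the importer NKCC1 (Slc12a2) and the exporter KCC2 (Slc12a5), and astrocytes and neurons clear the transmitters from the cleft.

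Nuclei of mouse spinal cord were sorted on NeuN, the neuronal nuclear protein encoded by Rbfox3, and the RNA of both sorts was sequenced. The 4 groups of 5 libraries were NeuN-positive nuclei of mice with experimental autoimmune encephalomyelitis (EAE, an induced autoimmune disease of the central nervous system) taken 15 days after active immunization, NeuN-positive nuclei of healthy mice, NeuN-negative nuclei of EAE mice and NeuN-negative nuclei of healthy mice. The labels give no strain, age, sex, genotype, immunizing peptide or clinical score, do not say whether the libraries come from separate or pooled animals, and say nothing of what the healthy mice received. P-values therefore measure the spread between libraries, which may be technical. Libraries are named below by sort, condition and the replicate number of the labels.

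Totals ran over 7072200 to 18686997 counts in NeuN-positive EAE libraries, 12076860 to 30499828 in NeuN-positive healthy, 3149209 to 15525441 in NeuN-negative EAE and 8336330 to 37689267 in NeuN-negative healthy libraries. Levels are CPM, that is counts relative to the TMM-adjusted size of each library, with SD over 5 libraries, and RPKM is CPM per kilobase of merged exons. The label of the sort was checked on Rbfox3, which averaged 193 ± 58.3 CPM in NeuN-positive and 29.6 ± 15.8 CPM in NeuN-negative EAE nuclei, and 312 ± 33.1 CPM in NeuN-positive and 29.6 ± 10.7 CPM in NeuN-negative healthy nuclei. Between the sorts it differed by a log2 fold change of 2.60 ± 0.40 (SE) in EAE mice (adjusted p = 0.00018) and 3.42 ± 0.30 in healthy mice (adjusted p = 2.53e-06). The mitochondrial share of counts averaged 3.61 ± 3.68% in NeuN-positive EAE and 0.910 ± 1.20% in NeuN-positive healthy libraries, and 7.89 ± 4.77% in NeuN-negative EAE and 1.78 ± 1.67% in NeuN-negative healthy libraries. EAE replicates 2 and 4 and healthy replicate 3 stood apart with over 2% in the NeuN-positive sort, so each count of members is also given without these 3 replicates in either sort, called the 3 mice here although the labels do not tie libraries to single mice. Leaving them out does not remove the difference in this share. The NeuN-negative EAE libraries left had 4.87, 2.18 and 7.94%, and the healthy ones 0.367 to 2.03%. In the NeuN-positive sort those left had 1.08 to 1.22% in EAE and 0.197 to 0.833% in healthy mice. All 8 markers of monocytes were called higher in EAE in both sorts, with summed CPM of 793 in EAE and 14.3 in healthy NeuN-positive nuclei, and 1499 and 68.3 in the NeuN-negative sort; their part in the results was not tested.

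In healthy mice, 14 of the 26 members tested were higher in NeuN-positive than in NeuN-negative nuclei and 4 were lower, where 22.8% of all genes tested were called higher and 23.0% lower (edgeR's quasi-likelihood test, Benjamini-Hochberg adjusted p under 0.05). The median log2 fold change of the members was 0.996, against -0.01 over all genes tested. In EAE mice 16 of 27 members were higher and 2 were lower, against 15.5% and 14.8% of all genes, with a median of 1.20 against -0.16. Glra3 had too few counts to be tested in the healthy comparison. Both enzymes of synthesis, both of breakdown, the vesicular carrier Slc32a1, the neuronal glycine carrier Slc6a5, Gabra3, Gabra5, Gabbr2, Gphn, Nlgn2 and Slc12a5 were called higher in NeuN-positive nuclei in both conditions. Slc12a2 was called lower in both. Without the 3 mice the counts were 15 higher and 5 lower in healthy and 16 higher and 3 lower in EAE mice. Over all genes, 4512 of 17458 were then called higher and 4576 lower in healthy mice. In EAE mice they were 3787 and 3768 of 18111.

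**Figure D1:**
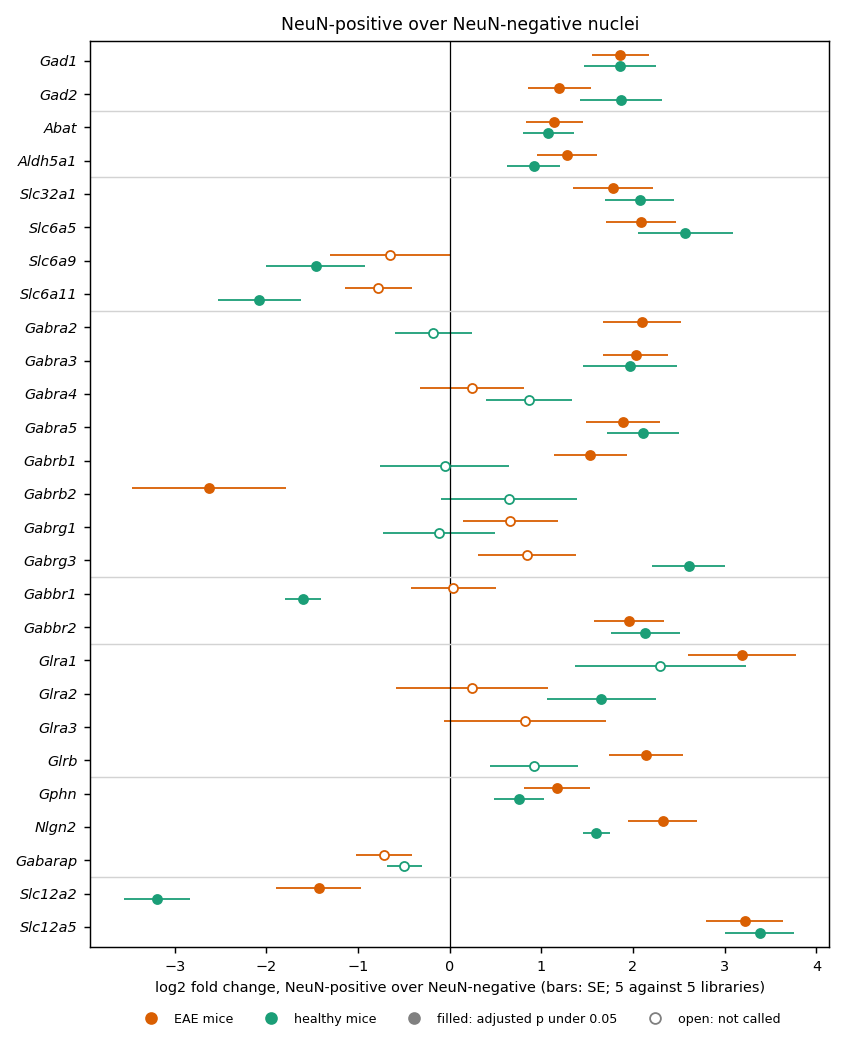
Log2 fold change of each member between NeuN-positive and NeuN-negative nuclei (x axis) in EAE mice and in healthy mice, with SE as bars over 5 libraries against 5, grouped by role from synthesis at the top to chloride cotransport at the bottom. Filled points passed an adjusted p of 0.05. Slc12a5 lies at 3.22 in EAE and 3.38 in healthy mice, and Slc12a2 on the other side of zero at -1.43 and -3.19.

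Per length of transcript, the levels in NeuN-positive nuclei were led in both conditions by Nlgn2, a postsynaptic adhesion protein of inhibitory synapses, at 87.6 ± 21.6 RPKM in EAE and 105 ± 8.83 RPKM in healthy mice, and by Slc12a5 at 70.2 ± 25.3 and 108 ± 36.5 RPKM in the same groups. Gabarap stood at 48.3 ± 15.0 and 30.0 ± 6.18 RPKM, and Gabbr1 at 36.8 ± 9.10 and 55.5 ± 5.26 RPKM. The lowest 2 members were Gabrb2, at 0.173 ± 0.0423 RPKM in EAE and 0.228 ± 0.188 RPKM in healthy mice, and Glra3, at 0.431 ± 0.340 and 0.0929 ± 0.0469 RPKM. In NeuN-negative nuclei of healthy mice Gabbr1 was the highest member at 173 ± 26.0 RPKM, followed by Slc12a2 at 52.7 ± 23.8 RPKM.

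EAE against healthy NeuN-positive nuclei gave 1 higher and 3 lower members of 27 tested, where 6.55% of all genes were called higher and 3.68% lower. The count was again 1 higher and 3 lower without the 3 mice, with Slc6a11 in place of Gad1. Over all 17315 genes tested, that setting called 1249 higher and 317 lower. The 3 lower members were presynaptic or glycine transport genes (Gad1, Slc32a1, Slc6a9), and the higher one was the glycine receptor subunit Glra3. In all 17 members had a negative and 10 a positive log2 fold change, and the median was -0.33, against -0.03 over all genes. EAE against healthy NeuN-negative nuclei gave 2 higher members (Gabrb2, Gabarap) and 7 lower ones (Aldh5a1, Slc6a9, Slc6a11, Gabra2, Gabbr1, Gphn, Slc12a2) of 26 tested, where 15.1% of all genes were called higher and 12.6% lower. The median of the members was -0.40 in the NeuN-negative sort, against 0.05 over all genes. Without the 3 mice there were 1 higher and 7 lower, Gabrb2 being lost, where 3197 of 18333 genes were called higher and 2258 lower.

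**Figure D2:**
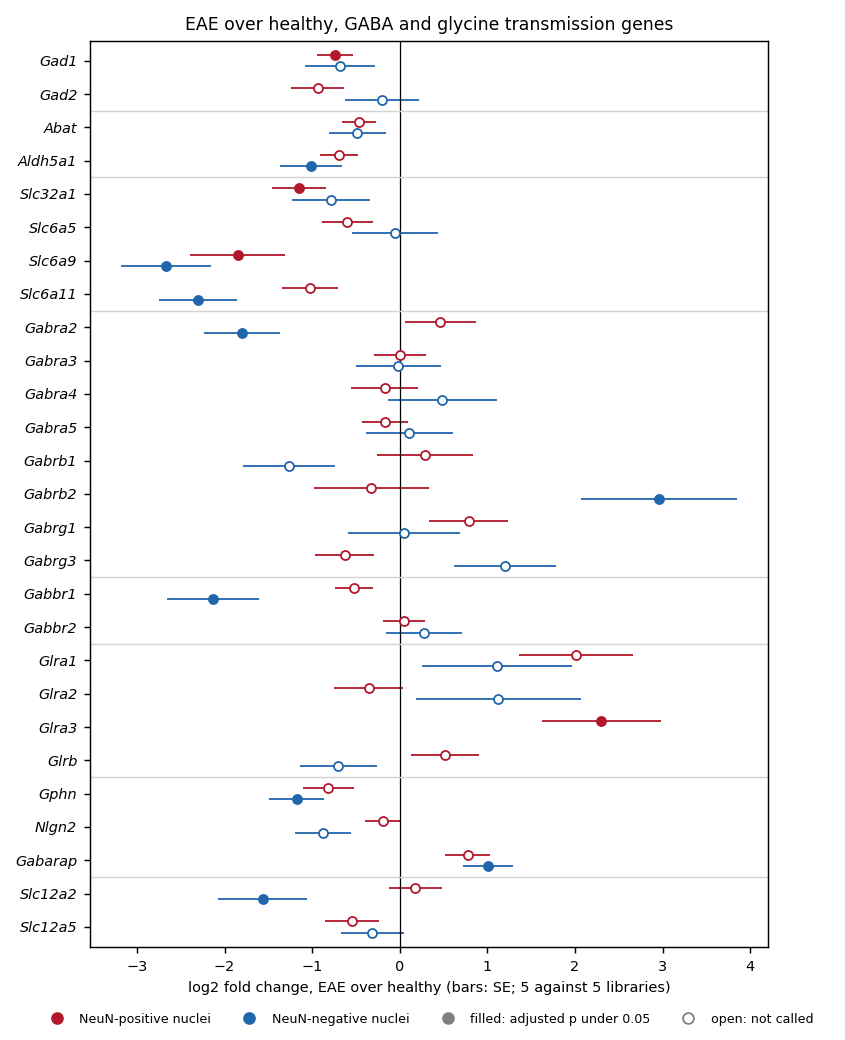
Log2 fold change of each member between EAE and healthy mice (x axis) in NeuN-positive and in NeuN-negative nuclei, with SE as bars over 5 libraries against 5. Filled points passed an adjusted p of 0.05: Gad1, Slc32a1, Slc6a9 and Glra3 in NeuN-positive nuclei, and 9 members in NeuN-negative nuclei, from Slc6a9 at -2.67 to Gabrb2 at 2.96.

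Promoters are shown for 4 members that changed in EAE: Gad1, Slc32a1 and Glra3, called in NeuN-positive nuclei, and Slc6a11, which had the smallest adjusted p of the members in NeuN-negative nuclei. They are RefSeq windows of the GRCm38.p6 build, 250 bases before to 50 after a start site, all on the plus strand, written 5′ to 3′ with CpG dinucleotides in capitals. The windows are chr2:70561879-70562178 (Gad1), chr2:158610508-158610807 (Slc32a1), chr6:114130991-114131290 (Slc6a11) and chr8:55940168-55940467 (Glra3).
Gad1: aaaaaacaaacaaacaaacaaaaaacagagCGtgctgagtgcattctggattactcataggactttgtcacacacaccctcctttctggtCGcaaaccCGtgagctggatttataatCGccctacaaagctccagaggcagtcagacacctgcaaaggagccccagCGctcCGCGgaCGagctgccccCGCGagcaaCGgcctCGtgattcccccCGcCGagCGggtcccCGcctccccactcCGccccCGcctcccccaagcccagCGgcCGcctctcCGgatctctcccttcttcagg
Slc32a1: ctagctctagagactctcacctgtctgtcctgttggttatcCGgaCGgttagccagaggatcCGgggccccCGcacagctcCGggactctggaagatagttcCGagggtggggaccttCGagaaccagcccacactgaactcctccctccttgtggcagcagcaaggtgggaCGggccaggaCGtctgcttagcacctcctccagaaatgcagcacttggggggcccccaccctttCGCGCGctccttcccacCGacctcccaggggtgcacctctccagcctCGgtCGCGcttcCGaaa
Slc6a11: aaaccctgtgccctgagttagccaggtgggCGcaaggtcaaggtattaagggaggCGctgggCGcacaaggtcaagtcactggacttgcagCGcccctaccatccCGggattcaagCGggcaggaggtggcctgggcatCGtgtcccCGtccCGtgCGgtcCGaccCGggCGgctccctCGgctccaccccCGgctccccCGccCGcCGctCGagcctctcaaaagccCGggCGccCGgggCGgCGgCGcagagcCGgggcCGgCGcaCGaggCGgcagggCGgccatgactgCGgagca
Glra3: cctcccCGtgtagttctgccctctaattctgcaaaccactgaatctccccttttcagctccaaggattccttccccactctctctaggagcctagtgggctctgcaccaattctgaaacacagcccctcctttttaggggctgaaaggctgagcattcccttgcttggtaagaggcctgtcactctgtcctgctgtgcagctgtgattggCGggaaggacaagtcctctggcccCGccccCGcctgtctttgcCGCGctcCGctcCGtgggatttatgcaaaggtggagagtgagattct
The windows held 21 CpG (Gad1), 17 (Slc32a1), 32 (Slc6a11) and 8 (Glra3). RefSeq windows were at hand for 24 of the 27 members, 32 windows in all, with a median of 13 CpG and a GC share of 60.2%, against 7 CpG and 52.7% over 32851 windows of all genes. Searched on both strands, the GC box GGGCGG was in 50% of member windows and 35.7% of all windows, and TATAAA in 15.6% and 13.6%. The E-box CANNTG was in 53.1% of member windows and 72.3% of all. These are matches of letters and not shown to be sites of any factor.

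Gad1 encodes GAD67, the decarboxylase that makes most of the basal GABA (GRCm38 2:70553072-70602014, plus strand, GENCODE M21). In NeuN-positive nuclei it had 56.1, 46.6, 59.0, 41.2 and 55.0 CPM in EAE replicates 1 to 5, against 91.8, 101, 61.2, 81.1 and 121 CPM in healthy replicates 1 to 5. All 5 EAE values lay below all 5 healthy values, with the nearest pair at 59.0 and 61.2 CPM. The log2 fold change was -0.73 ± 0.21 (adjusted p = 0.0382). Gad2, which encodes GAD65, the decarboxylase of axon terminals, had 25.2, 12.3, 23.9, 21.8 and 20.02 CPM in EAE, against 34.9, 48.0, 23.9, 28.9 and 74.6 CPM in healthy libraries. Healthy 3 lay level with EAE 3 and below EAE 1, so the groups overlapped, and the log2 fold change of -0.94 ± 0.30 did not pass (adjusted p = 0.0636). The Gad1 call was lost without any 1 of 8 libraries, all but EAE 3 and healthy 3 (adjusted p 0.0556 to 0.101), without the 3 mice (-0.68, adjusted p = 0.0514), with the replicate block (adjusted p = 0.0927) and in the fit on all 20 libraries (adjusted p = 0.141). Between EAE and healthy mice, here and below, that block joins libraries that share only a replicate number and are not pairs. Over all genes it took the calls in this comparison from 1092 higher and 613 lower to 738 and 411. Fewer inhibitory nuclei in the sort and less of the RNA per nucleus cannot be told apart in these bulk libraries. Beside these values, the summed CPM of 12 inhibitory neuron markers that are not members was 296 ± 80.5 in EAE (216 to 403) and 358 ± 27.5 in healthy NeuN-positive nuclei (319 to 390; exact permutation test, adjusted p = 0.268), with 1 of 12 called lower. The sum of 12 excitatory markers was 252 ± 27.5 CPM in EAE (213 to 276) and 347 ± 32.5 CPM in healthy nuclei (314 to 390; adjusted p = 0.0238), with 2 called lower, and that of 16 general neuron markers 53250 and 50110 CPM (adjusted p = 0.714). Of those 16, 0 were called and the median log2 fold change was 0.16, while Rbfox3 among them had -0.62 ± 0.22 (adjusted p = 0.0918 in edgeR's test). The part of these markers in the results was not tested.

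In NeuN-negative nuclei Gad1 had 6.75 to 18.0 CPM in EAE and 14.0 to 61.7 CPM in healthy libraries, where the 61.7 CPM belonged to healthy replicate 5 and the other 4 had up to 20.4 CPM. Neither Gad1 (log2 fold change -0.68 ± 0.40, adjusted p = 0.205) nor Gad2 (-0.21 ± 0.42, adjusted p = 0.739) passed there.

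Abat, the GABA transaminase, and Aldh5a1, the succinate semialdehyde dehydrogenase that completes GABA breakdown, were expressed in both sorts. Aldh5a1 had 42.7, 22.3, 45.5, 36.9 and 40.1 CPM in NeuN-positive EAE, against 66.8, 65.9, 46.9, 64.9 and 75.3 CPM in NeuN-positive healthy nuclei. The groups did not overlap, yet the log2 fold change of -0.69 ± 0.22 did not pass (adjusted p = 0.0571). In NeuN-negative nuclei it had 25.5, 11.2, 11.9, 12.2 and 12.8 CPM in EAE, against 36.9, 36.4, 12.2, 36.1 and 55.1 CPM in healthy libraries. Healthy replicate 3 lay inside the EAE range and the other 4 above it, and Aldh5a1 fell with a log2 fold change of -1.01 ± 0.35 (adjusted p = 0.0418). That call was lost without any 1 of 8 libraries, all but EAE 1 and healthy 3 (adjusted p 0.0627 to 0.0947). In all, 10 of the 18 alternatives run did not call Aldh5a1 there. Abat averaged 115 ± 18.8 CPM in NeuN-positive EAE and 169 ± 33.0 CPM in NeuN-positive healthy nuclei (log2 fold change -0.46 ± 0.19, adjusted p = 0.131). Exons of Aldh5a1 share 14.1% of their length with a gene on the opposite strand, and the use of strand in counting is not given in the sources used here.

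Slc32a1 encodes the vesicular carrier that loads both GABA and glycine (GRCm38 2:158610767-158615748, plus strand). In NeuN-positive nuclei it had 51.2, 18.0, 42.6, 14.9 and 38.8 CPM in EAE replicates 1 to 5, against 67.3, 92.6, 57.8, 79.8 and 89.2 CPM in healthy replicates 1 to 5. All EAE values were below all healthy values, and EAE 2 and 4, the replicates with the high mitochondrial share, were the lowest. The log2 fold change was -1.15 ± 0.31 (adjusted p = 0.0307), and -0.78 without the 3 mice (adjusted p = 0.0338). Scaled to the neuron markers it was -1.32 (adjusted p = 0.0226), a scaling that moved the median of all genes from -0.03 to -0.19. The call was lost without any 1 of 7 libraries, EAE 2, 4 or 5 or healthy 1, 2, 4 or 5 (adjusted p 0.0522 to 0.0785), and in the fit on all 20 libraries (adjusted p = 0.0618). In NeuN-negative nuclei the carrier had 3.67 to 15.3 CPM in EAE and 8.49 to 40.2 CPM in healthy libraries (log2 fold change -0.78 ± 0.45, adjusted p = 0.196). A gene on the opposite strand covers 24.9% of the Slc32a1 exons and had 17 counts over all 20 libraries.

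**Figure D3:**
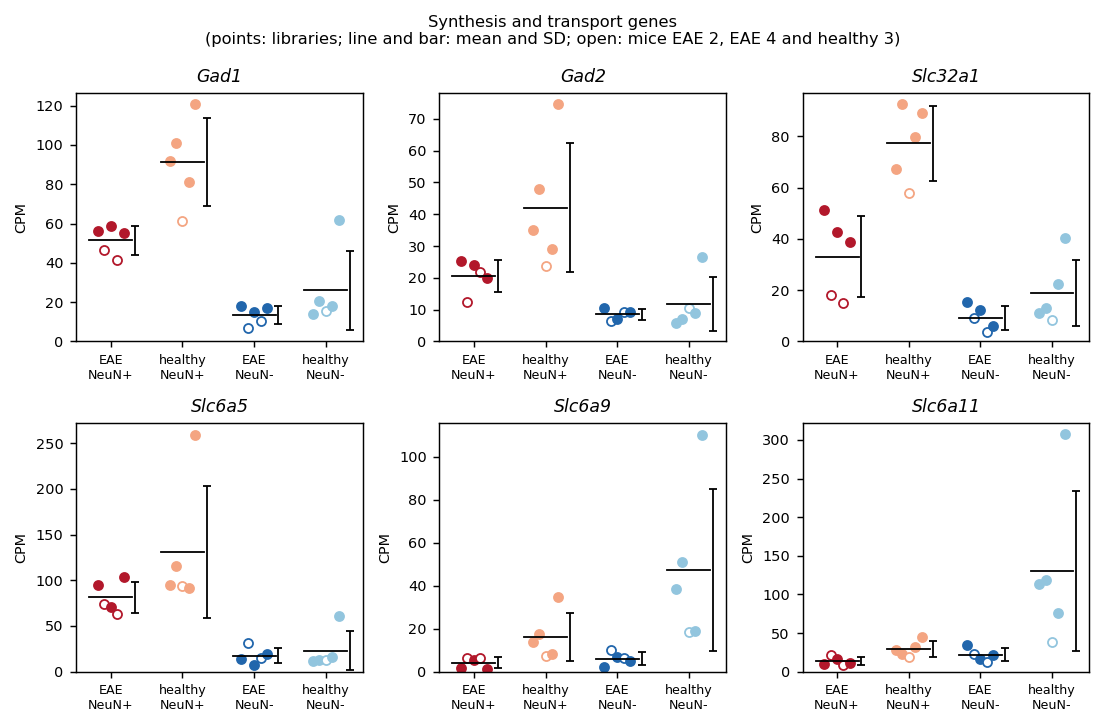
CPM of 6 synthesis and transport genes by library (y axis, starting at 0) in the 4 groups, with each replicate as a point, the group mean and SD as a line and bar, and, in both sorts, EAE 2, EAE 4 and healthy 3 as open points, chosen for their mitochondrial share in the NeuN-positive sort. Slc32a1 lies between 14.9 and 51.2 CPM in NeuN-positive EAE and between 57.8 and 92.6 CPM in NeuN-positive healthy nuclei, and Slc6a9 and Slc6a11 are highest in NeuN-negative healthy nuclei.

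Slc6a5 encodes GlyT2, the carrier that refills glycinergic terminals and marks glycinergic neurons. It averaged 81.3 ± 16.9 CPM in NeuN-positive EAE and 131 ± 72.4 CPM in NeuN-positive healthy nuclei, where replicate 5 alone reached 259 CPM. The other 4 healthy values were 91.4 to 115 CPM and overlapped with the EAE range of 63.2 to 104 CPM (log2 fold change -0.60 ± 0.29, adjusted p = 0.195). Between the sorts Slc6a5 had a log2 fold change of 2.09 ± 0.38 in EAE and 2.57 ± 0.52 in healthy mice (adjusted p = 0.000649 and 0.00145). The healthy value was 3.30 without NeuN-negative healthy replicate 5.

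The glycine carrier GlyT1 (Slc6a9; GRCm38 4:117834506-117875198, plus strand) and the GABA carrier GAT-3 (Slc6a11; 6:114131241-114249952, plus strand) are known from astrocytes. Slc6a9 had 2.06, 9.96, 6.92, 6.32 and 5.16 CPM in NeuN-negative EAE nuclei, against 38.7, 51.0, 18.5, 18.8 and 110 CPM in NeuN-negative healthy nuclei. The groups were separate, and Slc6a9 fell with a log2 fold change of -2.67 ± 0.52 (adjusted p = 0.00158). Slc6a11 had 35.2, 23.1, 16.2, 13.0 and 21.2 CPM in EAE, against 113, 118, 37.9, 75.7 and 307 CPM in healthy libraries of the same sort. These groups were separate too, by 35.2 to 37.9 CPM at the nearest, and Slc6a11 fell with a log2 fold change of -2.30 ± 0.44 (adjusted p = 0.00149). Both calls held in all 18 alternatives run. Beside them, the summed CPM of 10 astrocyte markers in NeuN-negative nuclei was 1390 ± 704 in EAE (838 to 2610) and 2561 ± 633 in healthy libraries (1767 to 3266; exact permutation test, adjusted p = 0.0851), with 3 of 10 markers called lower. The part of the astrocyte share in these results was not tested.

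In NeuN-positive nuclei Slc6a9 had 1.71, 6.47, 5.36, 6.46 and 1.24 CPM in EAE, against 13.7, 17.5, 7.13, 8.26 and 34.9 CPM in healthy libraries. The groups did not overlap, and it fell there with a log2 fold change of -1.85 ± 0.55 (adjusted p = 0.0454). This call was lost without any 1 of 7 libraries, EAE 1, 2, 4 or 5 or healthy 1, 2 or 5 (adjusted p 0.0554 to 0.103), with DESeq2's size factors (adjusted p = 0.0501), with the replicate block (adjusted p = 0.113) and with scaling to the neuron markers (adjusted p = 0.0611). Without the 3 mice it was -2.62 (adjusted p = 0.0299). Slc6a11 averaged 13.4 ± 5.10 CPM in NeuN-positive EAE and 29.3 ± 10.3 CPM in NeuN-positive healthy nuclei, with a log2 fold change of -1.03 ± 0.32 that did not pass (adjusted p = 0.0551); without the 3 mice it was -1.24 and passed (adjusted p = 0.0327). The astrocyte sum ran the other way in this sort, at 792 ± 276 CPM in EAE and 426 ± 102 CPM in healthy nuclei (adjusted p = 0.051). Genes on the opposite strand overlap Slc6a9, of which Ccdc24 covers 27.8% of its exons and had 988 counts over all libraries, against 9145 for Slc6a9.

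Between the sorts, Slc6a9 and Slc6a11 were lower in NeuN-positive than in NeuN-negative nuclei of healthy mice, with log2 fold changes of -1.46 ± 0.54 (adjusted p = 0.0419) and -2.08 ± 0.45 (adjusted p = 0.00239). In EAE mice the values were -0.65 ± 0.65 and -0.78 ± 0.36, and neither passed (adjusted p = 0.468 and 0.112). The healthy call of Slc6a9 was lost without any 1 of 7 libraries (NeuN-positive 1, 2, 3 or 4, or NeuN-negative 1, 2 or 5; adjusted p 0.0566 to 0.120). In all, 8 of the 18 alternatives run did not make that call. Slc6a11 passed in EAE without the 3 mice (-0.96, adjusted p = 0.0479).

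Of the 8 GABA-A subunits, 3 were called higher in NeuN-positive nuclei of healthy mice and 0 lower, against 22.8% and 23.0% of all genes. In EAE mice 4 were called higher and 1 lower, against 15.5% and 14.8%. Gabra3 and Gabra5 were higher in NeuN-positive nuclei in both conditions, by log2 fold changes of 2.03 ± 0.35 and 1.89 ± 0.40 in EAE and 1.97 ± 0.51 and 2.11 ± 0.39 in healthy mice (adjusted p 0.000438 to 0.00739). Gabra5 had 21.2 to 37.7 CPM in NeuN-positive and 3.24 to 12.4 CPM in NeuN-negative EAE nuclei, and 21.7 to 54.2 CPM against 4.31 to 15.7 CPM in healthy nuclei, so the sorts were separate in each condition. Gabrg3 was higher in NeuN-positive nuclei of healthy mice (2.61 ± 0.40, adjusted p = 0.000183); in EAE mice its difference of 0.85 ± 0.54 did not pass (adjusted p = 0.240), and passed at 2.33 without the 3 mice (adjusted p = 0.000429). Gabra4 and Gabrg1 did not pass in either condition. Between EAE and healthy NeuN-positive nuclei 0 of the 8 were called, where 6.55% of all genes were called higher and 3.68% lower. DESeq2's Wald test called 0 of 8, and 0 of 8 had an unadjusted p under 0.05, against 28.9% of all genes. The 8 log2 fold changes ran from -0.63 to 0.79. limma's voom with quality weights called 2 there, Gabra2 (0.97, adjusted p = 0.00216) and Gabrb1 (1.45, adjusted p = 0.00318). Over all 16675 genes tested, voom called 3820 higher and 3884 lower, and the Wald test 1746 and 1247.

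Gabrg1, Gabra2, Gabra4 and Gabrb1 lie side by side on chromosome 5 (GRCm38, 70751047 to 72149037), the first 3 on the minus strand and Gabrb1 on the plus strand. Their levels did not move as 1 block. Gabrb1, which encodes the β1 subunit, had 94.0, 65.0, 40.4, 87.6 and 74.1 CPM in NeuN-positive EAE, against 22.6, 32.7, 154, 84.8 and 12.3 CPM in NeuN-positive healthy nuclei. Healthy replicate 3 was the highest of the healthy libraries in NeuN-positive (154 CPM) and NeuN-negative nuclei (139 CPM), and it was highest for Gabra2 too (48.2 and 44.4 CPM). For Gabra4 and Gabrg1 the same NeuN-positive library was the lowest of the healthy ones, at 4.76 and 3.37 CPM.

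Gabra2, which encodes the α2 subunit of synaptic receptors, had 14.7, 3.54, 3.07, 7.13 and 6.11 CPM in NeuN-negative EAE, against 22.0, 23.0, 44.4, 30.3 and 17.8 CPM in NeuN-negative healthy nuclei. The groups were separate, and Gabra2 fell with a log2 fold change of -1.80 ± 0.43 (adjusted p = 0.00674), a call held in all 18 alternatives run. In NeuN-positive nuclei it had 27.9, 35.7, 16.8, 48.4 and 27.9 CPM in EAE, against 13.5, 13.9, 48.2, 27.9 and 16.2 CPM in healthy libraries. Healthy 3 and 4 lay inside the EAE range and the other healthy libraries below it, and the log2 fold change of 0.46 ± 0.40 did not pass (adjusted p = 0.470). Between the sorts Gabra2 was thus higher in NeuN-positive nuclei of EAE mice (2.10 ± 0.43, adjusted p = 0.00157), while in healthy mice its difference was -0.18 ± 0.42 (adjusted p = 0.760). Gabrb1 had a like pattern between the sorts, with 1.53 ± 0.40 in EAE (adjusted p = 0.00772) and -0.06 ± 0.71 in healthy mice (adjusted p = 0.957). The EAE value of Gabrb1 was 2.12 without NeuN-negative EAE replicate 1 and 1.22 without the 3 mice (adjusted p = 0.0774).

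Gabrb2, the β2 subunit gene, was near the bottom of the range in 3 groups and varied in the fourth. It had 2.13, 8.04, 0.669, 15.1 and 4.39 CPM in NeuN-negative EAE nuclei, against 0.709, 0.202, 2.06, 0.794 and 1.08 CPM in NeuN-negative healthy nuclei. EAE replicates 2 and 4, the 2 with high mitochondrial shares in the NeuN-positive sort, were the highest, and EAE 3 lay within the healthy range. EAE 2 and 4 were also the smallest libraries of this group, at 3149209 and 4104125 counts. With no filter on low counts, the median log2 fold change of all genes in this comparison was 0.95, against 0.05 in the main test. Glra3, another member with few counts, averaged 2.04 CPM in NeuN-negative EAE and 0.477 CPM in NeuN-negative healthy nuclei. The part of library size and low counts in the Gabrb2 values was not tested. Gabrb2 rose with a log2 fold change of 2.96 ± 0.89 (adjusted p = 0.0223), and the value without the 3 mice was 2.01 (adjusted p = 0.0662). The call was also lost without EAE 4 (2.16, adjusted p = 0.105) and without healthy 1, 2 or 4 (adjusted p 0.0563 to 0.0628). Of the 18 alternatives run, 6 did not call Gabrb2 higher. Between the sorts of EAE mice it was lower in NeuN-positive nuclei, at -2.62 ± 0.84 (adjusted p = 0.0259). That call was lost without NeuN-positive EAE 1, 3 or 5 (adjusted p 0.0612 to 0.0691), without NeuN-negative EAE 4 (-1.89, adjusted p = 0.134), and without the 3 mice (-1.24, adjusted p = 0.228). In all, 8 of the 18 alternatives run did not make it.

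The 2 subunits of the GABA-B receptor, which work as an obligate pair, were both found in both sorts, and in healthy mice they differed between the sorts in opposite directions. Gabbr2 had 60.7 to 111 CPM in NeuN-positive and 10.04 to 36.1 CPM in NeuN-negative EAE nuclei (log2 fold change 1.96 ± 0.38, adjusted p = 0.00109). In healthy mice it had 69.5 to 126 CPM in NeuN-positive and 10.8 to 47.7 CPM in NeuN-negative nuclei (2.13 ± 0.38, adjusted p = 0.000575). Gabbr1, in contrast, was lower in NeuN-positive than in NeuN-negative nuclei of healthy mice (-1.60 ± 0.20, adjusted p = 3.29e-05), and its difference in EAE mice was 0.04 ± 0.46 and did not pass (adjusted p = 0.959).

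Gabbr1 was the member with the largest fall in CPM in the NeuN-negative sort. It had 303, 55.6, 513, 102 and 386 CPM in NeuN-negative EAE, against 1479, 1498, 1353, 1381 and 997 CPM in NeuN-negative healthy nuclei. Every EAE library lay below every healthy one, with EAE 2 and 4 the lowest. The log2 fold change was -2.13 ± 0.52 (adjusted p = 0.00757), and the call held in all 18 alternatives run. In NeuN-positive nuclei Gabbr1 had 350, 167, 318, 278 and 314 CPM in EAE, against 379, 407, 472, 424 and 471 CPM in healthy libraries; the groups were separate, but -0.52 ± 0.21 did not pass (adjusted p = 0.125). Beside these values, the sum of 5 oligodendrocyte precursor markers in NeuN-negative nuclei was 179 ± 53.0 CPM in EAE (115 to 230) and 405 ± 111 CPM in healthy libraries (275 to 560; exact permutation test, adjusted p = 0.0198), and 5 of 10 oligodendrocyte markers were called lower. The sum of those 10 was 64960 CPM in EAE and 51440 CPM in healthy libraries (adjusted p = 0.574). Their part in the fall of Gabbr1 was not tested.

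Glycine receptors of the adult cord are built mainly from α1 (Glra1) and β (Glrb) subunits. Glra1 had 28.5, 88.1, 12.9, 143 and 63.8 CPM in NeuN-positive EAE, against 6.47, 11.7, 43.9, 18.2 and 8.43 CPM in NeuN-positive healthy nuclei. Healthy 3 and 4 lay inside the EAE range and the other 3 healthy libraries below it, and the log2 fold change of 2.01 ± 0.65 did not pass (adjusted p = 0.0653). Without healthy 3 it was 2.70 and passed (adjusted p = 0.0108), as it did without EAE 3 (2.27, adjusted p = 0.0175). In all, 4 of the 19 alternatives run called Glra1 and 15 did not (adjusted p up to 0.154). EAE 4 and 2 were the highest EAE libraries and healthy 3 the highest healthy one. These are the 3 replicates with the high mitochondrial share. Glra1 was not called without the 3 mice either, and over the 19 alternatives its log2 fold change ran from 1.51 to 2.70. The part of the mitochondrial share itself in the Glra1 values was not tested. Glrb averaged 142 ± 62.6 CPM in NeuN-positive EAE and 108 ± 58.5 CPM in NeuN-positive healthy nuclei (0.52 ± 0.39, adjusted p = 0.401).

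Glra3 encodes the α3 subunit, known in mouse from the superficial dorsal horn (GRCm38 8:55940460-56130070, plus strand). It had 3.34, 0.947, 1.14, 7.75 and 6.67 CPM in NeuN-positive EAE, against 0.398, 0.421, 1.39, 1.02 and 1.05 CPM in NeuN-positive healthy nuclei. EAE replicates 1, 4 and 5 were above every healthy library and EAE 2 and 3 were within the healthy range. Glra3 rose with a log2 fold change of 2.30 ± 0.68 (adjusted p = 0.0453), from 232 counts in the 5 EAE libraries and 80 in the 5 healthy ones. The call was lost without any 1 of 7 libraries, EAE 1, 4 or 5 or healthy 1, 2, 4 or 5 (adjusted p 0.0709 to 0.120), with scaling to the neuron markers (2.02, adjusted p = 0.0785), with the replicate block (2.06, adjusted p = 0.109) and in the fit on all 20 libraries (2.22, adjusted p = 0.122). Without the 3 mice it was 2.48 (adjusted p = 0.0373). In NeuN-negative nuclei the gene had 83 counts in the EAE and 33 in the healthy libraries, too few to be tested. Glra2, the subunit that is highest before birth, had 2.83 to 7.61 CPM in NeuN-positive EAE and 3.86 to 10.4 CPM in NeuN-positive healthy nuclei (-0.35 ± 0.39, adjusted p = 0.578).

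**Figure D4:**
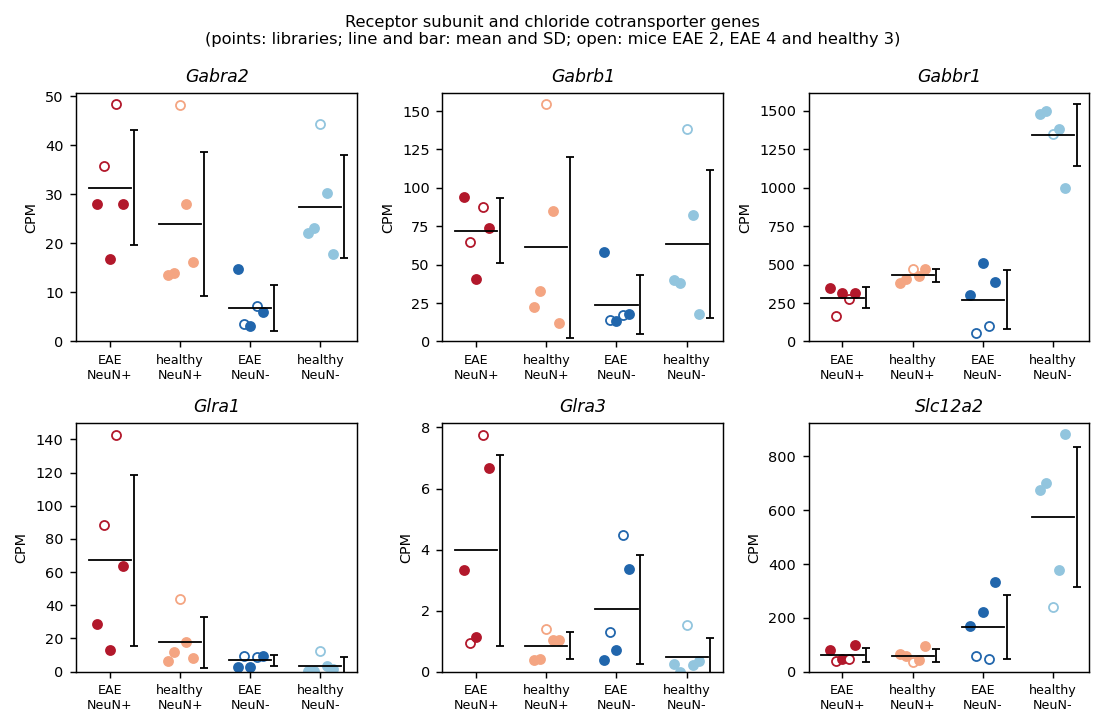
CPM of 5 receptor subunit genes and Slc12a2 by library (y axis, starting at 0) in the 4 groups, with each replicate as a point, the group mean and SD as a line and bar, and, in both sorts, EAE 2, EAE 4 and healthy 3 as open points, chosen for their mitochondrial share in the NeuN-positive sort. Gabbr1 lies between 997 and 1498 CPM in NeuN-negative healthy nuclei and between 55.6 and 513 CPM in NeuN-negative EAE nuclei, and Glra1 spreads from 12.9 to 143 CPM in NeuN-positive EAE nuclei.

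Between the sorts Glra1 was higher in NeuN-positive nuclei of EAE mice (3.19 ± 0.59, adjusted p = 0.000736), as was Glrb (2.14 ± 0.40, adjusted p = 0.00087). In healthy mice the values were 2.30 ± 0.94 and 0.92 ± 0.48 and did not pass (adjusted p = 0.0631 and 0.141). With the replicate number as a block, which pairs the sorts of a replicate, both passed in healthy mice (Glra1 2.89, adjusted p = 0.000169; Glrb 1.07, adjusted p = 4.9e-05). The block also brought Gabra4 (0.96, adjusted p = 0.00175) and Gabarap (-0.51, adjusted p = 0.0107) past the threshold in healthy mice. In EAE mice it brought in Gabarap (-0.73, adjusted p = 0.0356) and ended the call of Gabrb2 (-1.90, adjusted p = 0.0787). The block raised calls over all genes too, in healthy mice from 3910 higher and 3938 lower to 5683 and 5560 of 17134. In EAE mice they went from 2793 and 2662 to 3596 and 3196 of 17982. Glra2 was higher in NeuN-positive nuclei of healthy mice (1.66 ± 0.60, adjusted p = 0.0380), a call lost without any 1 of 6 libraries (NeuN-positive 2, 4 or 5, or NeuN-negative 1, 2 or 4; adjusted p 0.0558 to 0.0938). In all, 7 of the 18 alternatives run did not make that call.

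Of the proteins that hold receptors at the synapse, gephyrin (Gphn) is the scaffold and neuroligin 2 (Nlgn2) the adhesion partner. Gphn had 19.8, 10.6, 23.9, 17.3 and 13.4 CPM in NeuN-negative EAE, against 53.5, 57.5, 20.1, 37.9 and 60.8 CPM in NeuN-negative healthy nuclei. EAE 3 and healthy 3 crossed, the other libraries were separate, and Gphn fell with a log2 fold change of -1.18 ± 0.32 (adjusted p = 0.0126; called in all 18 alternatives run). In NeuN-positive nuclei Gphn averaged 40.2 ± 16.6 CPM in EAE and 74.6 ± 19.7 CPM in healthy libraries (-0.82 ± 0.29, adjusted p = 0.0857). It was higher in NeuN-positive than in NeuN-negative nuclei, by 1.17 ± 0.36 in EAE (adjusted p = 0.0194) and 0.76 ± 0.27 in healthy mice (adjusted p = 0.0381). The EAE call was lost without NeuN-positive 3 or NeuN-negative 5 (adjusted p 0.0507 to 0.0637), and the healthy call without any 1 of 8 libraries, all but NeuN-positive 3 and NeuN-negative 5 (adjusted p 0.0507 to 0.0902). Of the 18 alternatives run, 10 did not call the healthy difference (adjusted p up to 0.116). Gephyrin also makes the molybdenum cofactor in other tissues.

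Nlgn2 had the smallest adjusted p of the members between the sorts of healthy mice. It had 313 to 620 CPM in NeuN-positive and 39.9 to 135 CPM in NeuN-negative EAE nuclei, and 552 to 670 CPM against 183 to 229 CPM in healthy nuclei. The log2 fold changes were 2.32 ± 0.37 in EAE (adjusted p = 0.000229) and 1.60 ± 0.15 in healthy mice (adjusted p = 3.96e-06). In NeuN-negative nuclei its EAE values lay below all healthy ones, but -0.88 ± 0.32 did not pass (adjusted p = 0.0540). Gabarap, which binds GABA-A receptors and acts in autophagy in all cells, had 215, 114, 130, 94.8 and 139 CPM in NeuN-negative EAE, against 71.6, 76.0, 67.4, 86.0 and 101 CPM in NeuN-negative healthy nuclei. EAE 4 lay inside the healthy range, and Gabarap rose with a log2 fold change of 1.01 ± 0.28 (adjusted p = 0.0161). That call was lost without any 1 of 5 libraries, EAE 1 or 5 or healthy 1, 2 or 4 (adjusted p 0.0513 to 0.0869). It was also lost with the replicate block and with no filter on low counts. In all, 7 of the 18 alternatives run did not call Gabarap there (adjusted p up to 0.265, log2 fold change down to 0.67). In NeuN-positive nuclei it averaged 89.1 ± 27.6 CPM in EAE and 55.4 ± 11.4 CPM in healthy libraries (0.78 ± 0.26, adjusted p = 0.0712).

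The chloride cotransporters lay at opposite ends of the sort. Slc12a5 (KCC2), which pumps chloride out of mature neurons, had 608, 231, 692, 439 and 644 CPM in NeuN-positive EAE, against 868, 959, 421, 660 and 1120 CPM in NeuN-positive healthy nuclei. Healthy 3 and 4 lay within the EAE range, and -0.54 ± 0.30 did not pass (adjusted p = 0.253). In NeuN-negative nuclei it had 19.9 to 74.4 CPM in EAE and 49.3 to 158 CPM in healthy libraries. Slc12a2 (NKCC1), which brings chloride into cells, had 171, 56.6, 220, 48.5 and 332 CPM in NeuN-negative EAE, against 675, 700, 241, 378 and 882 CPM in NeuN-negative healthy nuclei. Healthy 3 lay inside the EAE range, and Slc12a2 fell with a log2 fold change of -1.57 ± 0.50 (adjusted p = 0.0304). That call was lost without any 1 of 6 libraries, EAE 1, 2 or 4 or healthy 1, 2 or 5 (adjusted p 0.0546 to 0.0789). In NeuN-positive nuclei Slc12a2 averaged 63.7 ± 26.0 CPM in EAE and 59.8 ± 23.0 CPM in healthy libraries (0.18 ± 0.30, adjusted p = 0.733).

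Between the sorts, Slc12a5 was higher in NeuN-positive nuclei by 3.22 ± 0.42 in EAE (adjusted p = 4.72e-05) and 3.38 ± 0.38 in healthy mice (adjusted p = 1.63e-05). Slc12a2 was lower by -1.43 ± 0.46 in EAE (adjusted p = 0.0271) and -3.19 ± 0.36 in healthy mice (adjusted p = 1.95e-05). The EAE call of Slc12a2 was lost without any 1 of 7 libraries (NeuN-positive 1, 2, 3 or 4, or NeuN-negative 1, 3 or 5; adjusted p 0.0503 to 0.123). Per library, the RPKM ratio of Slc12a5 over Slc12a2 was 10.9, 8.26, 21.1, 13.7 and 9.38 in NeuN-positive EAE, against 18.9, 23.7, 17.8, 22.2 and 17.5 in NeuN-positive healthy nuclei. EAE 3 fell among the healthy values and the other 4 EAE libraries lay below them. In NeuN-negative nuclei the ratio was 0.328 to 1.66 in EAE and 0.107 to 0.364 in healthy libraries. The ratios were not tested.

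**Figure D5:**
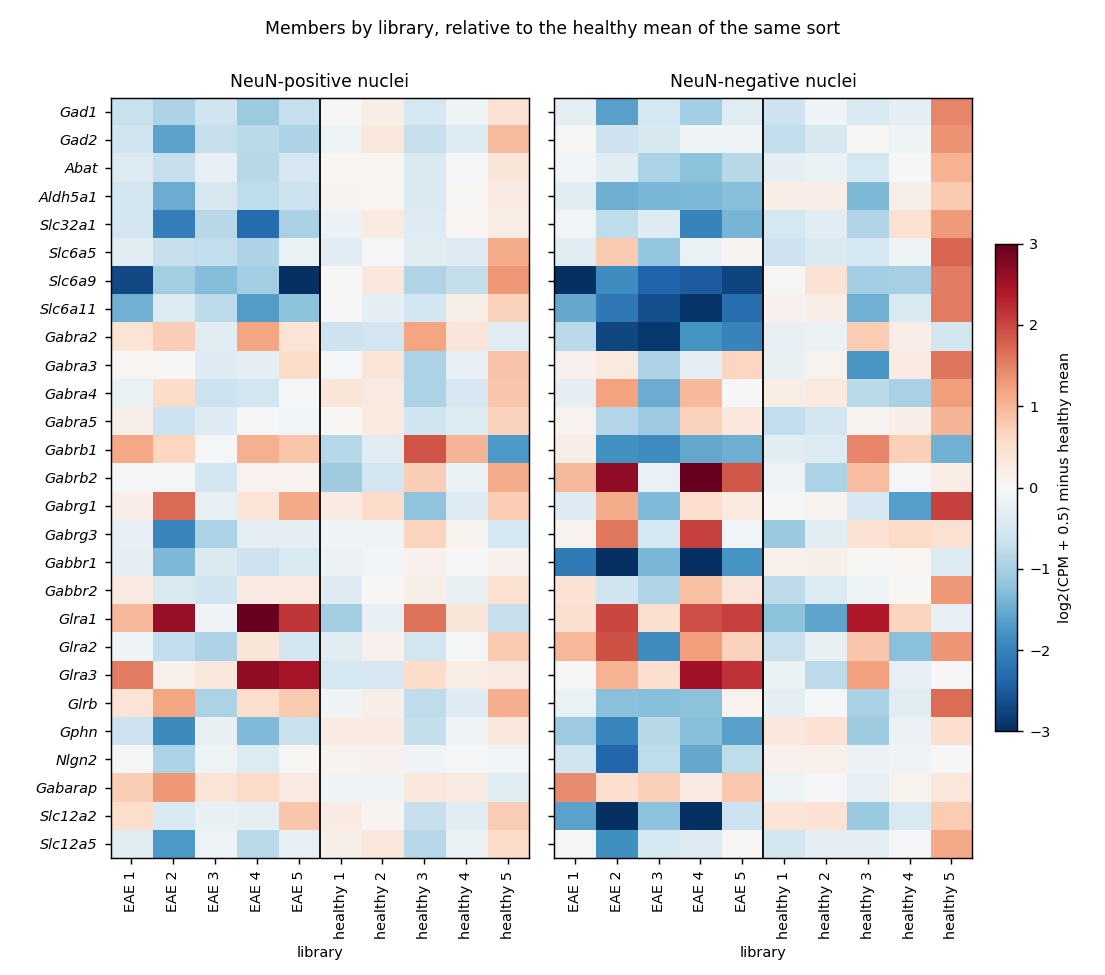
Log2(CPM + 0.5) of each member in each of the 20 libraries minus its mean over the healthy libraries of the same sort, with members in rows by role, EAE libraries left of healthy ones, and NeuN-positive and NeuN-negative nuclei in separate panels. Blue is below and red above the healthy mean. NeuN-negative healthy replicate 5 stands out in red for Gad1 (61.7 CPM), Slc6a5 (61.3 CPM) and Glrb (152 CPM).

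Whether EAE acted unequally on a member in the 2 sorts was tested in a fit on all 20 libraries, as the EAE effect in NeuN-positive nuclei minus that in NeuN-negative nuclei. Of the 27 members 1 was called, Gabra2, with a difference of 2.36 ± 0.60 on the log2 scale (adjusted p = 0.0342), and 0 were called lower, where 1.74% of all genes were called higher and 0.822% lower. At an unadjusted p under 0.05 there were 6 members above zero and 2 below, Gabrb2 and Gabrg3, where 18.2% of all genes had such a p. The largest difference below zero was that of Gabrb2 (-3.05 ± 1.10, adjusted p = 0.128). DESeq2's Wald test called Gabrb2 lower (-3.41, adjusted p = 0.0312). The Gabra2 call was lost without any 1 of 12 libraries (NeuN-positive EAE 1, 4 or 5, NeuN-positive healthy 1, 2 or 5, NeuN-negative EAE 2, 4 or 5, or NeuN-negative healthy 1, 2 or 4; adjusted p 0.0533 to 0.0999) and without the 3 mice (1.86, adjusted p = 0.0802).

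With the replicate number as a block the difference was called for 5 members rather than 1, where 9.74% of all genes were called higher and 2.45% lower. They were Gabra2 and, beside it, Gabrb1 (2.05, adjusted p = 0.00221), Gabbr1 (2.07, adjusted p = 0.00665), Nlgn2 (0.90, adjusted p = 0.0399) and Slc12a2 (2.09, adjusted p = 0.00323), each with a difference above zero. DESeq2's size factors moved the median difference of all genes from 0.15 to -0.11 and the split of all calls from 356 higher and 168 lower to 236 and 236. Relative to that median, Gabra2 lay at 2.21 with TMM and at 2.26 with size factors, where its value of 2.15 did not pass (adjusted p = 0.0652). For Gad1, Slc32a1 and Slc6a9, called lower in NeuN-positive nuclei, the differences were 0.11 ± 0.50, -0.20 ± 0.59 and 1.03 ± 0.76 and did not pass, so the data do not show that their EAE effect differs between the sorts.

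A second list of 43 genes of the same pathways, all found in the table, gives the setting of these values. It holds the remaining GABA-A subunits, further carriers, auxiliary proteins of GABA-B receptors, organisers of the inhibitory postsynapse, kinases that regulate the cotransporters and enzymes of glycine breakdown. In NeuN-positive nuclei EAE against healthy called 2 of 38 tested, both lower, where 6.55% of all genes were called higher and 3.68% lower. Insyn1, which encodes a protein of the inhibitory postsynapse, averaged 22.6 CPM in EAE and 58.0 CPM in healthy libraries, with no overlap (-1.28 ± 0.24, adjusted p = 0.00382). The median of the list was -0.26, with 28 negative and 10 positive values, against -0.03 over all genes.

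In NeuN-negative nuclei 2 of 39 rose and 7 fell, where 15.1% of all genes were called higher and 12.6% lower. The median of the list there was 0.01, with 19 negative and 20 positive values, against 0.05 over all genes. Gabrr2, which encodes a rho subunit of GABA-A receptors, averaged 3.91 CPM in EAE and 30.9 CPM in healthy libraries, with no overlap (-2.73 ± 0.43, adjusted p = 0.000285). The kinases Wnk1 (-1.61 ± 0.40, adjusted p = 0.00822) and Wnk2 (-1.31 ± 0.30, adjusted p = 0.00503), which act on both chloride cotransporters, fell as well. The 2 that rose were Gabrd (1.44 ± 0.50, adjusted p = 0.0409) and Plcl2 (1.97 ± 0.70, adjusted p = 0.0465). Gabrd was low in this sort, at 9.67 CPM in EAE and 4.23 CPM in healthy libraries. The difference between the sorts passed for 2 of 42, Gabrr2 (2.79 ± 0.73, adjusted p = 0.0393) and Wnk1 (1.94 ± 0.44, adjusted p = 0.0209), where 1.74% of all genes were called higher and 0.822% lower. Without the 3 mice it passed for 1 gene, where 363 of 19868 genes were called higher and 362 lower.

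Set by sort, the second list had 15 of 39 genes higher and 8 lower in the NeuN-positive nuclei of healthy mice, and 11 and 5 of 40 in EAE mice. The shares of all genes were 22.8% higher and 23.0% lower in healthy mice, and 15.5% and 14.8% in EAE mice. Iqsec3, an exchange factor that binds gephyrin, averaged 632 CPM in NeuN-positive and 60.6 CPM in NeuN-negative EAE nuclei (3.29 ± 0.41, adjusted p = 3.03e-05). In healthy mice it averaged 817 and 64.5 CPM (3.68 ± 0.30, adjusted p = 1.88e-06). Wnk2 was higher in NeuN-positive nuclei, by 3.62 ± 0.35 in EAE and 2.51 ± 0.23 in healthy mice, while Wnk1 was lower in those of healthy mice (-1.74 ± 0.23). Plcl1 and the carrier Slc6a12 were lower in NeuN-positive nuclei in both conditions, Plcl1 by -1.43 ± 0.36 in EAE and -2.75 ± 0.28 in healthy mice.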

How the data were processed

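RNA of NeuN-sorted nuclei was sequenced from mouse spinal cord in 4 groups of 5 libraries, after column purification and TruSeq poly(A) library preparation, as the labels' protocols state. The authors deposited raw counts per gene for the whole series. STAR 2.4 and DESeq2, and the builds GRCm39 and mm10, are named in the submitters' processing notes; no source used here gives the counting tool, the annotation release or whether strand was used. Positions and exon lengths are those of GENCODE M21 (GRCm38), matched by Ensembl number.

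Of 43629 genes, 1167 were without a symbol (0.2515 to 0.4144% of a library's counts). Totals were 3149209 to 37689267 counts. The main test was the quasi-likelihood F-test of edgeR 4.0.16 under R 4.3.3 (genes kept by filterByExpr, TMM, robust fit, Benjamini-Hochberg over all genes tested, call at an adjusted p under 0.05), with separate fits for each comparison and 1 fit on 20 libraries for the difference between sorts. SE is the log2 fold change over the square root of F. Alternatives used DESeq2 1.42.0 and limma 3.58.1, other filters and scalings, a replicate block, and leaving out libraries. Marker sums were compared by an exact two-sided permutation test over 5 against 5 libraries, adjusted over 15 lists; the smallest unadjusted p this design allows is 0.00794.

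Named are all 27 members and, of 43 other pathway genes, those called, at most 4 per direction in a comparison. Results of 2 of these genes are not reported here. Members and lists were chosen with earlier results of these data known. The main tests did not pair the sorts of a replicate number, and only the replicate block did. Deviations of same-numbered NeuN-positive and NeuN-negative libraries correlated at 0.115 to 0.379 in EAE and 0.28 to 0.7 in healthy mice. Differently numbered libraries reached 0.187 in EAE and 0.32 in healthy mice, so the ranges overlapped. That same-numbered libraries come from the same mouse is not stated. Code was tested on simulated counts. Of 40 pairs of libraries within groups, 0 were identical (chi-square per gene 11.1 to 392.8).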

Additional observations from a re-analysis of the deposited data

Results flagged for a closer look

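Within groups of 5 libraries, Dixon's test at 95% flagged 14 of 108 sets of member values. In each, the highest or lowest library lay far from the other 4. Chance gives about 1 in 20 for independent sets of normally distributed values. The sets here are untransformed CPM and share libraries, so that rate may not hold. Of the 14 flagged sets, 9 belonged to NeuN-negative healthy replicate 5. In it Gad1 had 61.7 CPM (the others 14.0 to 20.4), Gad2 26.5 CPM (5.93 to 10.4), Abat 158 CPM (52.5 to 75.8) and Slc6a5 61.3 CPM (11.5 to 16.2). Gabrg1 had 31.2 CPM (1.93 to 7.69), Gabbr2 47.7 CPM (10.8 to 19.7), Glrb 152 CPM (24.2 to 45.3) and Slc12a5 158 CPM (49.3 to 70.1), and Gabbr1 was the lowest at 997 CPM (1353 to 1498). The summed CPM of 16 neuron markers was 6654 in that library and 2509 to 4679 in the other NeuN-negative healthy ones; the part of neuronal RNA in these values was not tested.

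NeuN-negative EAE replicate 1 was high for Aldh5a1 (25.5 CPM, others 11.2 to 12.8) and Gabrb1 (58.0 CPM, others 13.3 to 17.8). NeuN-positive healthy replicate 5 was high for Slc6a5 (259 CPM, others 91.4 to 115). NeuN-negative healthy replicate 3 was high for Glra1 (12.5 CPM, others 0.324 to 3.40) and Glra3 (1.54 CPM, others up to 0.360). The EAE effect on Gabra2 differed between the sorts by 2.36 on the log2 scale in the test of the difference itself.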

How the results depend on the processing

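Counts of members called depended on the processing in the EAE comparisons of NeuN-positive nuclei. For the 1 higher member there, DESeq2's Wald test gave 3, voom 5, the replicate block 0, the fit on 20 libraries 0, scaling to neuron markers 0, and leaving out a library 0 to 3. For the 3 lower, the Wald test gave 6, voom 9, no filter 5, the replicate block 1, the fit on 20 libraries 1, and leaving out a library 0 to 7. Of all 16675 genes the main test called 1092 higher and 613 lower, the Wald test 1746 and 1247, and voom 3820 and 3884. The replicate block called 738 and 411, and scaling to neuron markers 675 and 529. The fit on 20 libraries called 1372 and 503 of 20444, and no filter 1417 and 913 of 34780. Leaving out a library gave 677 to 1721 higher and 178 to 1462 lower. In NeuN-negative nuclei the 2 higher became 4 with voom, 1 with no filter, 0 with the replicate block, 1 without the 3 mice and 0 to 4 without a library. The 7 lower stayed within 5 to 9 over all alternatives. Of all 17604 genes the main test called 2650 higher, voom 4520 and the replicate block 1877. No filter called 5618 of 37579 higher, and leaving out a library 1796 to 4011. All genes called lower ran from 1370 to 4552 over the alternatives. Between the sorts the 14 higher (12 to 18 over all alternatives) and 4 lower (3 to 6) in healthy mice and the 16 higher (15 to 18) in EAE mice stayed within 1.5 times, while the 2 lower in EAE became 1 with no filter, 3 without the 3 mice and 0 to 2 without a library. Over all genes the alternatives called 2995 to 6199 higher and 3472 to 6012 lower in healthy mice. In EAE mice they called 2202 to 4560 higher and 1731 to 4599 lower. For the difference between sorts, the 1 higher became 0 with size factors, 3 with the Wald test, 6 with voom, 5 with the replicate block, 0 without the 3 mice and 0 to 2 without a library, and the 0 lower became 1 with the Wald test. Of all 20444 genes the main test called 356 higher, size factors 236, the Wald test 649, voom 3059 and the replicate block 1992. The Wald test called 862 lower. Leaving out a library called 63 to 754 higher. EAE and healthy libraries of a number were not paired (correlations -0.335 to 0.275), so their block fit shows shared numbers only. Gabrg1 changed sign between the sorts of healthy mice, from -0.12 to 0.72 with voom (adjusted p = 0.0449). The causes were not tested. Over all members, settings and comparisons, 2663 values gave 125 lost and 87 gained calls. Exclusion of the 3 mice was chosen after seeing the data. Depth limits Glra3 and Gabrb2, with 33 to 232 counts and 65 to 191 counts per group.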
